A study of Mus musculus with 6 samples.

Results

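Malat1, Neat1, Meg3 and Kcnq1ot1 are 4 long noncoding RNAs, and their expression was described here in mammary epithelium with and without Wwox. Every probe set whose gene symbol was exactly 1 of the 4 names was taken, which gave 26 of the 45101 probe sets on the array. Malat1 had 7, Neat1 had 2, Meg3 had 11 and Kcnq1ot1 had 6. The 4 RNAs were picked because Malat1 stood much higher in Wwox KO than in WT on these same arrays. The KO against WT difference of the 4 RNAs is therefore given as a description, with no test. The study asked what deletion of Wwox does to gene expression in the mammary gland. Organoids, the epithelial fragments left after digestion of the gland, were prepared from 3 WT and 3 KO mice of 8 weeks, and RNA of each mouse was hybridised to an Affymetrix mouse expression array. All 6 mice were Wwox flox/flox on a mixed 129/J and C57BL/6 background, as the labels spell it, where the study's methods give the former as 129SV. The WT mice (WT1, WT2 and WT3) were BK5-cre negative and the KO mice (KO5, KO6 and KO7) were BK5-cre positive. BK5 is the bovine keratin 5 promoter, which is active in epithelial precursors and in basal cells of many epithelia, so deletion was not restricted to the mammary gland. No Cre positive mouse with intact Wwox was arrayed, so effects of Cre and of Wwox deletion cannot be told apart.

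Long noncoding RNAs are transcribed and often spliced like messenger RNAs but code for no known protein, and many stay in the nucleus. Malat1 is a very abundant RNA that gathers in nuclear speckles, the bodies where splicing factors are stored. Neat1 is the scaffold of paraspeckles, bodies that form beside the speckles and hold RNA-binding proteins. Neat1 is needed for normal mammary gland development and lactation in the mouse. Meg3 is transcribed from the maternal chromosome of the imprinted Dlk1-Dio3 region, and Kcnq1ot1 from the paternal chromosome of the Kcnq1 region, where it silences neighbouring genes in cis.

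The 6 arrays held the deposited log2 values, made with the robust multi-array average (RMA), and any 2 arrays correlated at 0.975 to 0.992 over all probe sets. Wwox itself, on its brightest probe set (the one of the highest mean over the 6 arrays), was 7.77, 7.63 and 7.72 on the WT arrays and 6.23, 5.87 and 5.96 on the KO arrays, a fall of 1.69 on the log2 scale (limma, adjusted p = 0.0228). Its 3 other probe sets differed by -0.24, -0.44 and -1.04. The floxed part is the start of the gene, and where these probes lie relative to it was not examined. The 4 control transcripts are probed at both ends, and their 3' minus 5' difference is a measure of RNA integrity and of labelling. For Gapdh it was 0.95, 2.41 and 1.79 in WT and 0.40, 0.56 and 0.46 in KO. For β-actin it was 0.98, 1.85 and 1.82 in WT and 0.71, 0.63 and 0.63 in KO. Two-sided exact permutation tests gave p = 0.1 in both cases, which is as low as 3 against 3 arrays can go. WT1 was the WT array nearest to KO for both. For the transferrin receptor it was 2.09, 2.05 and 1.95 in WT and 1.81, 1.81 and 1.60 in KO (exact permutation p = 0.1). For pyruvate carboxylase it was 1.77, 1.91 and 3.0 in WT and 3.21, 2.83 and 2.45 in KO, a difference of 0.61 in the other direction with the groups overlapping (exact permutation p = 0.3). WT1 was the WT array farthest from the KO mean for these 2. The 5' probe set of the small-subunit ribosomal RNA read 7.67, 6.52 and 6.43 in WT and 9.89, 9.52 and 10.54 in KO, a difference of 3.11 with the groups apart and WT1 nearest to KO (two-sided exact permutation p = 0.1). Over all probe sets, 894 of 45037 were called (limma, unadjusted p under 0.01 and at least 2-fold), 759 higher and 135 lower. Without WT1 the count was 1634 and without WT2 it was 566. The mean log2 level of 11 luminal markers was 12.14 to 12.42 in WT and 12.31 to 12.52 in KO, and that of 9 basal markers was 9.49 to 9.83 and 9.50 to 9.78. That of 7 adipocyte markers was 7.64 to 8.69 and 8.04 to 8.31. Of 8 fibroblast markers 7 were higher in KO (mean level 10.60 to 10.84 in WT and 10.81 to 11.48 in KO, with Col1a1 called at 1.43, adjusted p = 0.0492). All 8 endothelial markers were higher (9.25 to 9.72 and 9.86 to 10.33, with Cldn5 called at 1.24, adjusted p = 0.0401). Of 11 macrophage and lymphocyte markers all were lower (6.34 to 7.79 and 6.08 to 7.02) and 0 were called by limma, with 0 also at an unadjusted p under 0.05. The part of these markers in the values below was not tested.

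Of the 26 probe sets, 23 had a higher mean in KO than in WT: 7 of 7 for Malat1, 2 of 2 for Neat1, 9 of 11 for Meg3 and 5 of 6 for Kcnq1ot1. Over all probe sets the KO mean was the higher in 43.7%. Of the 26, 8 lay within the limits of a call (5 of Malat1, 1 of Neat1, 2 of Meg3 and 0 of Kcnq1ot1), each of them higher in KO. Of all probe sets, 1.99% were called, 1.69% as higher and 0.300% as lower. For 16 members the lowest KO array lay above the highest WT array, where 10.7% of all probe sets did so, and for 1 member the reverse held, where 13.6% did. Since the 4 RNAs were chosen on this contrast, nothing is read from these shares. The median difference of the probe sets was 2.57 for Malat1, 1.06 for Neat1, 0.39 for Meg3 and 0.23 for Kcnq1ot1 on the log2 scale. Over all probe sets it was -0.034. Of the 26 probe sets 17 had a mean above 5.45, the median of all probe sets, and the other 9 were dim (5 of Meg3 and 4 of Kcnq1ot1). The plot of all 26 probe sets by array shows these values together, and it shows that probe sets of the same RNA did not move alike.

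**Figure D1:**
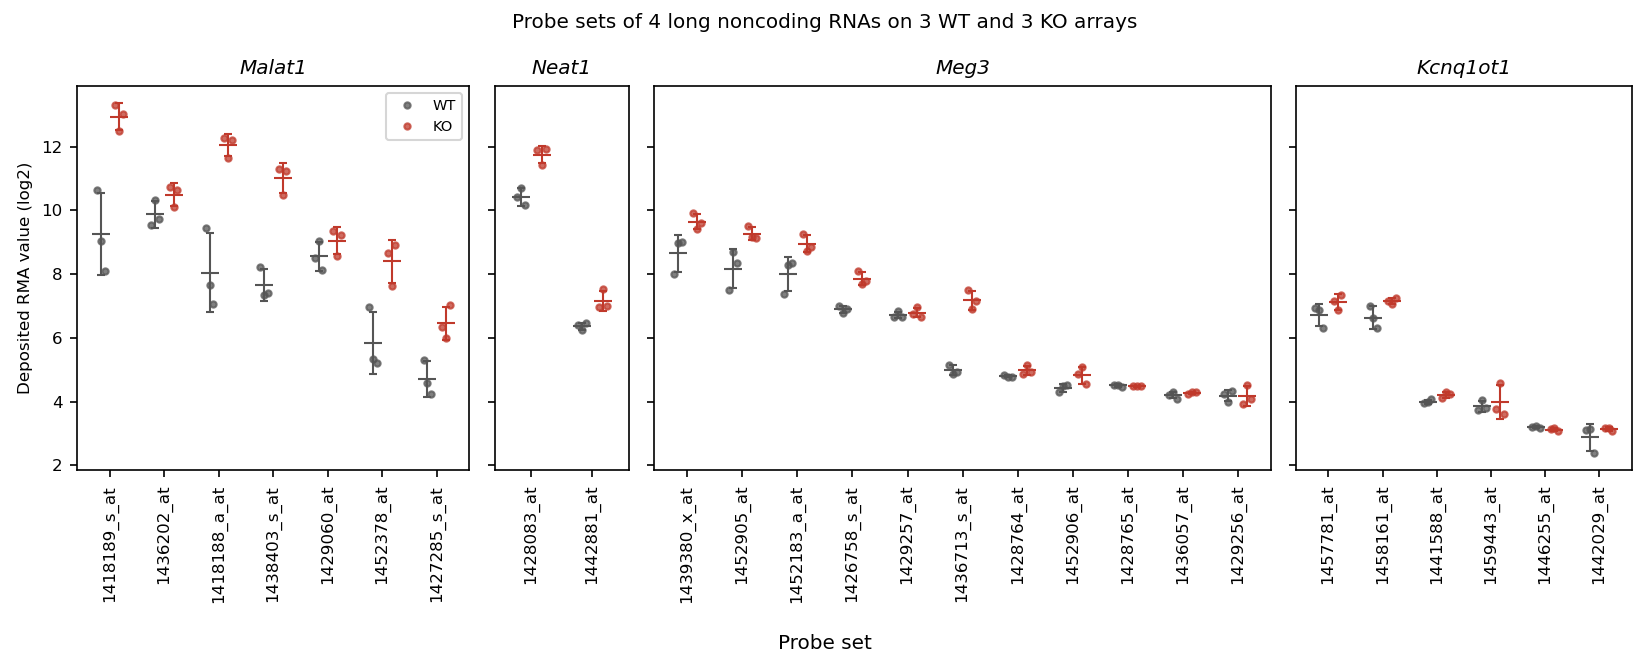
Deposited RMA values (log2, vertical axis) of the 26 probe sets of Malat1, Neat1, Meg3 and Kcnq1ot1 on the 3 WT (grey) and 3 KO (red) arrays, with probe sets ordered by their mean within each RNA. Points are arrays, from left to right WT1, WT2, WT3 and KO5, KO6, KO7. Horizontal lines are group means and vertical bars are ± 1 SD. The groups are apart on 5 Malat1 probe sets, by 0.67 to 2.23 from highest WT to lowest KO, and overlap on 2.

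The start sites of 3 of the 4 RNAs matched an entry in the RefSeq promoter table of the GRCm38.p6 build; Neat1 did not. The windows run from 250 bases before to 50 bases after the start and are printed so that the control regions of RNAs whose difference between the groups was larger (Malat1 and Meg3) and smallest (Kcnq1ot1) can be compared. Malat1 is read from the minus strand at chr19:5802623-5802922, Meg3 from the plus strand at chr12:109540746-109541045 and Kcnq1ot1 from the minus strand at chr7:143296498-143296797. Capitals mark matches, on either strand, to the motif TGACGTCA, to the shorter motif TGACG that it contains, to the motif CCAAT and to the motif TATAAA. On the other strand TGACG reads as CGTCA.
Malat1: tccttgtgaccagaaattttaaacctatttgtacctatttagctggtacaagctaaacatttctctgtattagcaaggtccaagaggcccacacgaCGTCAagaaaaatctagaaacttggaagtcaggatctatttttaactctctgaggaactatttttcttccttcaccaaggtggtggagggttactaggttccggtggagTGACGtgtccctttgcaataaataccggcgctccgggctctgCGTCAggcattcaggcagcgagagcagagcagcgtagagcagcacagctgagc
Meg3: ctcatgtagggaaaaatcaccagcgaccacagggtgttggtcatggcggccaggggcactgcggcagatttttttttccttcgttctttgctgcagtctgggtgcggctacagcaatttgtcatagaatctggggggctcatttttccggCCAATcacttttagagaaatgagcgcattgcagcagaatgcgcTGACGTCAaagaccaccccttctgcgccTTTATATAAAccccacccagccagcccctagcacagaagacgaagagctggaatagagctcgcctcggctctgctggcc
Kcnq1ot1: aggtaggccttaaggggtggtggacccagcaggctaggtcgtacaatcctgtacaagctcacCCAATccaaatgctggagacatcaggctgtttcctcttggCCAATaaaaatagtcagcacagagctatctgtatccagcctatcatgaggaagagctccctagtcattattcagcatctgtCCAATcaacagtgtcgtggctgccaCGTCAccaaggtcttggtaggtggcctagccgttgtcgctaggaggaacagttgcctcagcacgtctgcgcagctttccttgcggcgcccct
The Malat1 window held 3 matches to TGACG and none of the other motifs. The Meg3 window held 1 TGACGTCA, which contains TGACG once on each strand, 1 CCAAT and 2 overlapping TATAAA. The Kcnq1ot1 window held 3 CCAAT and 1 TGACG. Of the 32851 promoter windows in the table, 20.8% held TGACG, 1.79% held TGACGTCA, 37.4% held CCAAT and 13.6% held TATAAA. A further Meg3 start in the table, at chr12:109545148-109545447, held none of the 4. The windows contained 10 CG dinucleotides for Malat1, 13 for the Meg3 start shown and 9 for Kcnq1ot1. Such matches are letters only and say nothing of binding.

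Malat1 showed the largest differences of the 4 RNAs, and they depended on the probe set. On 1418188_a_at the WT values were 9.45, 7.64 and 7.05 and the KO values 12.28, 11.66 and 12.20. The lowest KO array lay 2.20 above the highest WT array, and WT1 lay 2.10 above the mean of WT2 and WT3. The group means were 8.05 ± 1.25 and 12.05 ± 0.34 (SD, n = 3 each), a difference of 4.0 or 16.0-fold, which ranked 2 among the 45037 probe sets. On 1418189_s_at, the brightest probe set of Malat1 and designed from the same GenBank record, the values were 10.65, 9.03 and 8.11 in WT, against 13.31, 12.50 and 13.03 in KO. The difference was 3.68, which ranked 3, and WT1 again stood between the other WT arrays and KO. On 1438403_s_at the WT values were 8.24, 7.34 and 7.40 and the KO values 11.30, 10.47 and 11.25, a difference of 3.35. Here WT1 was 0.87 above the mean of WT2 and WT3, less than on the other 2, and the KO mean was 2.77 above WT1. In organoid RNA, which comes from mixed cells, fewer cells of a type and less RNA per cell cannot be told apart.

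The other Malat1 probe sets were dimmer or differed less. On 1452378_at the values were 6.97, 5.33 and 5.21 in WT, against 8.65, 7.64 and 8.92 in KO, a difference of 2.57. On 1427285_s_at, from the same GenBank record, WT read 5.31, 4.59 and 4.22 and KO 6.34, 6.0 and 7.03, a difference of 1.75. For both, the groups were apart and WT1 was the highest WT array. On 1436202_at, in contrast, the WT values were 9.54, 10.34 and 9.74 and the KO values 10.74, 10.10 and 10.65, and on 1429060_at WT read 8.49, 9.04 and 8.14 and KO 9.35, 8.56 and 9.24. The groups overlapped on both, the differences were 0.62 and 0.49, and WT1 was not the highest WT array. The suffix _s_at marks probe sets whose probes match several transcripts, and _a_at those that match several transcripts of a gene, and 4 of the 5 Malat1 probe sets within the limits carry 1 of these.

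Probe sets of the same RNA were also compared within an array, for a pair taken for its large and its small difference. The value of 1418188_a_at minus that of 1429060_at was 0.96, -1.39 and -1.09 in WT and 2.93, 3.09 and 2.96 in KO. The 2 Malat1 probe sets thus changed unequally, by 3.51 more on the former. Deviations of the 6 arrays from their group means, which do not hold the KO against WT difference, showed the same 2 groups of probe sets. The 5 within the limits correlated with each other at r = 0.79 to 0.99 (Pearson, 6 arrays, description only), and the 2 others at 0.89. Between the 5 and the 2 the correlations were -0.20 to 0.42. The points share the same 6 arrays, and probes of different probe sets may lie at different places along the transcript, which was not examined here. The plot by array shows values minus the WT mean, which hold the KO against WT difference, unlike the deviations from group means. In it the 5 profiles lay above the 2 on WT1 and on the KO arrays. They lay below the 2 on WT2 and were mixed with them on WT3. The control transcripts are plotted beside them.

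**Figure D2:**
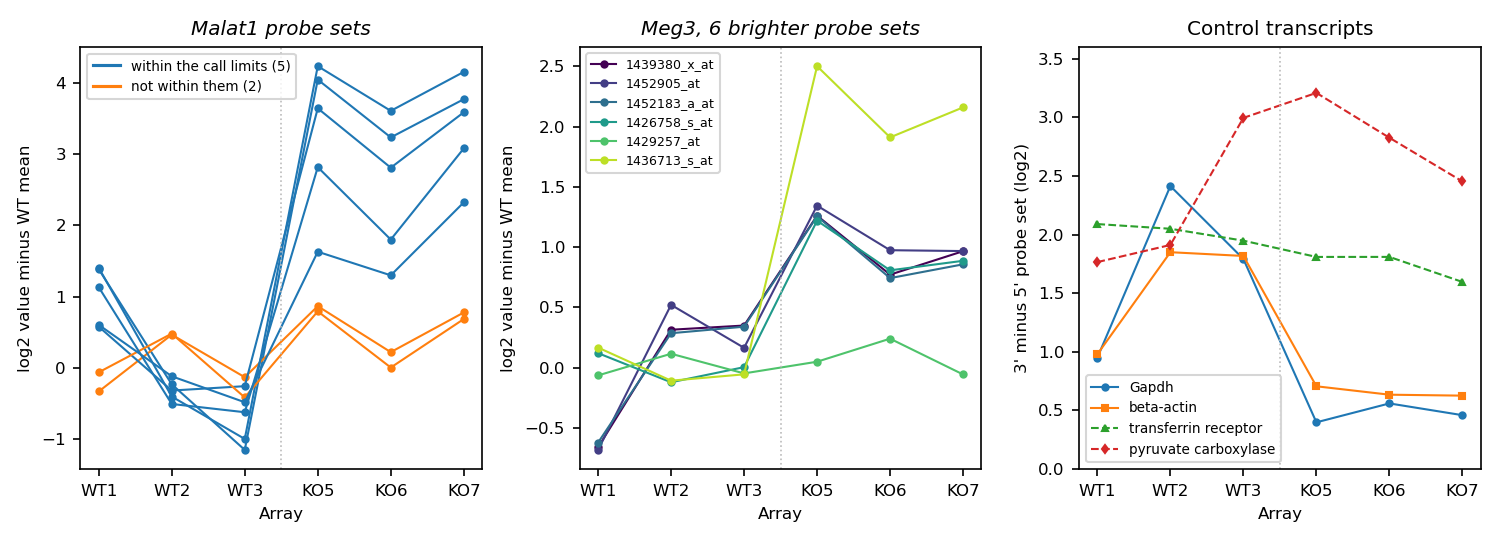
Left and middle, log2 value minus the WT mean on each of the 6 arrays for the 7 Malat1 probe sets (blue, within the call limits; orange, not) and for the 6 Meg3 probe sets of highest mean; right, 3' minus 5' difference (log2) of the 4 control transcripts. The 5 blue Malat1 lines have WT1 as their highest WT array, 3 Meg3 lines have it clearly lowest, and the Gapdh and β-actin differences are lower on WT1 than on WT2 and WT3 and lowest on the KO arrays.

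The Malat1 differences changed when a value from the control transcripts was added to the fit. With RNA quality as a covariate in the fit, taken per array as the 3' minus 5' value averaged over Gapdh and β-actin, the difference of 1418188_a_at was 2.04, that of 1418189_s_at was 1.83 and that of 1438403_s_at was 2.44. Those of 1452378_at and 1427285_s_at were 0.86 and 0.91, while those of 1436202_at and 1429060_at became 1.23 and 0.77. The 7 probe sets thus came closer together, from a spread of 0.49 to 4.0 to a spread of 0.77 to 2.44, and 1 instead of 5 lay within the call limits. With an average over all 4 control transcripts instead, 3 lay within them. Without WT1 the differences of the 5 were larger, for example 4.70 on 1418188_a_at and 4.38 on 1418189_s_at, and the 2 others were at 0.45 and 0.46. All 7 were above 0 in each of these settings. WT1 was the highest WT array in 85.0% of all probe sets called as higher in KO and in 31.3% of all probe sets. The 5' probe set of the small-subunit ribosomal RNA, given above, had WT1 as its highest WT array too. The Gapdh and β-actin average was 0.96, 2.13 and 1.81 in WT and 0.55, 0.60 and 0.54 in KO, so the groups were apart on it. Its SD was 0.60 in WT and 0.03 in KO, so its slope rested mostly on WT1 against WT2 and WT3. Genotype and RNA quality therefore cannot be told apart in that fit. The part of RNA quality and of ribosomal RNA in the Malat1 values was not tested.

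**Figure D3:**
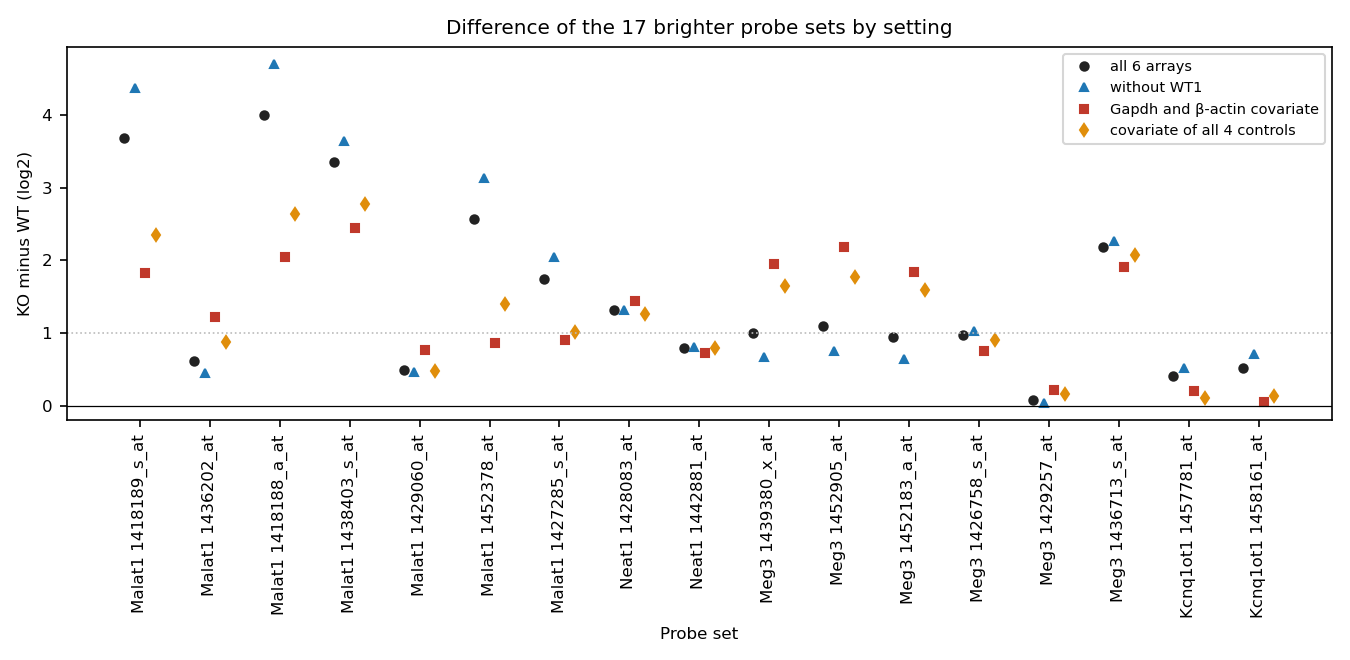
KO minus WT (log2, vertical axis) of the 17 probe sets with a mean above the median of all probe sets, in the fit of all 6 arrays (black), without WT1 (blue) and with an RNA quality covariate from Gapdh and β-actin (red) or from all 4 control transcripts (orange). The dotted line is a 2-fold difference; the values of 5 Malat1 probe sets fall with either covariate, those of 3 Meg3 probe sets rise and those of Neat1 stay at 1.27 to 1.44 and 0.73 to 0.82.

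Neat1 was higher in KO on both of its probe sets. On 1428083_at the values were 10.42, 10.71 and 10.16 in WT, against 11.90, 11.43 and 11.92 in KO. The groups were apart by 0.72, and the means were 10.43 ± 0.28 and 11.75 ± 0.28 (SD, n = 3 each), a difference of 1.32 or 2.5-fold. On 1442881_at the WT values were 6.39, 6.24 and 6.45 and the KO values 6.96, 7.52 and 7.01, a difference of 0.80 with the groups apart by 0.50. KO6 was the lowest KO array on the former and the highest on the latter, and the deviations of the 2 probe sets from their group means correlated at -0.89 over the 6 arrays. Unlike for Malat1, WT1 was neither the highest nor the lowest WT array on either. The differences were 1.44 and 0.73 under the covariate from Gapdh and β-actin, 1.27 and 0.80 with that of all 4 control transcripts, and 1.32 and 0.82 without WT1. The probe set 1428083_at lay within the call limits in every fit tried, while the setting of an adjusted p under 0.05 was not applied to the 4 RNAs. This is a description and no test, since the RNAs were chosen on this contrast.

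Meg3 was measured by 11 probe sets, of which 6 were above the median brightness. On the brightest, 1439380_x_at, the values were 7.99, 8.97 and 9.0 in WT, against 9.91, 9.42 and 9.62 in KO. Unlike the other Meg3 probe sets it carries the suffix _x_at and no GenBank record, and what else its probes match was not examined. On 1452905_at the WT arrays read 7.49, 8.70 and 8.34 and the KO arrays 9.52, 9.15 and 9.14. On 1452183_a_at the WT arrays read 7.38, 8.28 and 8.34 and the KO arrays 9.26, 8.74 and 8.86. The groups were apart on all 3, KO5 was the highest KO array, and WT1 was the lowest WT array by about the same amount (0.99, 1.03 and 0.94 below the mean of WT2 and WT3). The differences were 1.0, 1.10 and 0.95. The limit of 2-fold fell between them: 1452905_at lay just inside it at 2.14-fold, and 1439380_x_at just outside it at a difference of 0.9996.

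The other brighter Meg3 probe sets followed different courses. Of them, 1436713_s_at and 1426758_s_at carry the suffix _s_at, given above for probe sets whose probes match several transcripts. On 1436713_s_at the WT values were 5.15, 4.88 and 4.93 and the KO values 7.49, 6.90 and 7.15, so that it was dim in WT and stood above the median brightness in KO. The difference was 2.19 or 4.57-fold, which ranked 44 of all probe sets. On 1426758_s_at the values were 7.01, 6.77 and 6.90 in WT, against 8.11, 7.70 and 7.78 in KO, a difference of 0.97 with the groups apart by 0.69. On 1429257_at WT read 6.65, 6.83 and 6.67 and KO 6.76, 6.95 and 6.66, and the groups overlapped with a difference of 0.08. WT1 was the highest WT array on the first pair of these and the lowest on 1429257_at, by at most 0.25 from the mean of WT2 and WT3. Within an array, 1436713_s_at minus 1429257_at was -1.5, -1.95 and -1.74 in WT and 0.73, -0.06 and 0.49 in KO, a shift of 2.11. The 2 Meg3 probe sets thus changed unequally. The 5 dim probe sets differed by -0.02 to 0.39. They include 1428764_at and 1428765_at, which were designed from the same GenBank record as 1452905_at and differed by 0.18 and -0.02.

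Under either RNA quality covariate the differences of the 3 brightest Meg3 probe sets moved up, opposite to those of the 5 Malat1 probe sets within the call limits. With that of Gapdh and β-actin their differences were 1.96, 2.19 and 1.85, and with that of all 4 control transcripts they were 1.66, 1.77 and 1.59. Without WT1 they were 0.67, 0.75 and 0.64. The probe set 1436713_s_at stayed at 1.92, 2.08 and 2.27 and 1426758_s_at at 0.75, 0.91 and 1.03 in these 3 settings. Either covariate placed 4 Meg3 probe sets within the call limits, and ribosomal protein centring and cyclic loess normalization placed 5. The count was 3 with quantile normalization and without WT3, and 1 without KO5. Of all 45037 probe sets, these first 4 settings called 316 (Gapdh and β-actin), 634 (all 4 controls), 1118 (centring) and 943 (loess). The groups were apart on the Gapdh and β-actin covariate, whose slope rested mostly on WT1. Genotype and RNA quality therefore cannot be told apart in that fit for Meg3 either. These counts are descriptions, since the RNAs were chosen on this contrast. The difference of 1452905_at was within the limits without WT2 and outside them without any 1 of the other 5 arrays.

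Kcnq1ot1 differed least. On 1457781_at, its brightest probe set, the WT values were 6.94, 6.89 and 6.31 and the KO values 7.15, 6.88 and 7.36. The groups overlapped, and the means of 6.71 ± 0.35 and 7.13 ± 0.24 (SD, n = 3 each) differed by 0.42. On 1458161_at the values were 7.01, 6.61 and 6.30 in WT, against 7.16, 7.08 and 7.26 in KO. Here the lowest KO array was 0.07 above the highest WT array, and the difference was 0.53. WT3 was the lowest array on both probe sets, and their deviations from the group means correlated at 0.83 over the 6 arrays. Under the covariate from Gapdh and β-actin the differences were 0.20 and 0.05, with that of all 4 control transcripts 0.12 and 0.14, and without WT1 0.53 and 0.71. The 4 other probe sets were dim and differed by -0.08 to 0.26. On 1446255_at, the 1 member on which every KO array lay below every WT array, the WT values were 3.21, 3.23 and 3.18 and the KO values 3.14, 3.17 and 3.06, near the bottom of the array's scale. No probe set of Kcnq1ot1 lay within the call limits in any fit tried.

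The imprinted genes around Meg3 and Kcnq1ot1 were not among the RNAs chosen, so limma results are given for them. Their lists were drawn up with earlier results of these data known, so these results are not independent of the contrast. Of the 6 genes listed for the Dlk1-Dio3 region besides Meg3, 3 were carried by a probe set with that symbol alone, and all 3 were higher in KO on every array. Rian, a maternally expressed noncoding RNA that hosts small nucleolar RNAs, was 6.88, 7.02 and 7.61 in WT and 8.06, 7.93 and 7.78 in KO, a difference of 0.75 (limma, adjusted p = 0.111). Mirg, a maternally expressed microRNA host, was 4.62, 4.99 and 4.91 in WT and 5.54, 5.28 and 5.26 in KO, a difference of 0.52 (limma, adjusted p = 0.118). Dlk1, the paternally expressed gene of a transmembrane protein related to Notch ligands, was 5.64, 5.83 and 5.84 in WT and 6.78, 5.99 and 6.07 in KO, a difference of 0.51 (limma, adjusted p = 0.256). None of the 3 was called by limma, and all 3 were higher at an unadjusted p under 0.05, which 6.17% of all genes were. WT1 was the lowest WT array for each, as for the 3 brightest Meg3 probe sets. With the covariate of all 4 control transcripts Rian was called, at 1.11.

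Of the 15 genes in and beside the Kcnq1 region all were measured and 0 were called by limma, and at an unadjusted p under 0.05 it was 1 in each direction. Over all 18193 genes, each by its brightest probe set, 0.517% were called higher and 0.462% lower. Cdkn1c, a cyclin-dependent kinase inhibitor that Kcnq1ot1 silences on the paternal chromosome, was 7.01, 7.39 and 7.76 in WT and 7.79, 7.88 and 8.15 in KO, a difference of 0.55 (limma, adjusted p = 0.198). Kcnq1, the potassium channel gene within which Kcnq1ot1 is transcribed, was 6.84, 6.99 and 6.94 in WT and 6.56, 6.58 and 6.42 in KO, a difference of -0.40 (limma, adjusted p = 0.11). Dhcr7, an enzyme of cholesterol synthesis, had a difference of -0.42 (limma, adjusted p = 0.404) with the groups overlapping. The median difference of the 15 was -0.02, beside -0.065 over all genes. The plot of both regions shows the Meg3 neighbours higher in KO and the Kcnq1ot1 neighbours on both sides.

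**Figure D4:**
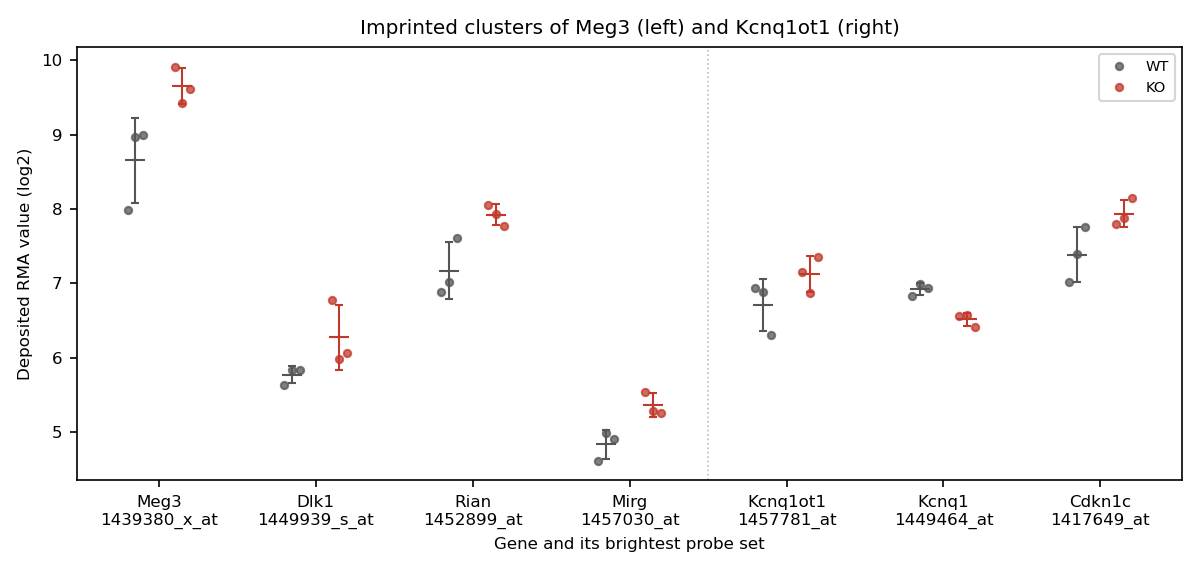
Deposited RMA values (log2, vertical axis) on the 3 WT (grey) and 3 KO (red) arrays for Meg3 and 3 genes of its imprinted region (left) and for Kcnq1ot1 and 2 genes of its region (right), each by its brightest probe set. Points are arrays, horizontal lines are means and vertical bars are ± 1 SD; Dlk1, Rian and Mirg were apart between the groups and not called.

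Among 27 measured imprinted genes listed mostly from other regions, 2 were called higher by limma and 0 lower, where 0.517% and 0.462% of all genes were. Igf2r, the receptor that clears IGF2, was 8.87, 7.73 and 7.70 in WT and 9.78, 9.83 and 9.98 in KO, a rise of 1.76 (limma, adjusted p = 0.0571). Gatm, an enzyme of creatine synthesis, was 6.45, 5.68 and 5.98 in WT and 7.62, 7.56 and 6.46 in KO, a rise of 1.18 (limma, adjusted p = 0.128). At an unadjusted p under 0.05, 8 were higher and 0 lower, where 6.17% and 13.0% of all genes were, and the median difference was 0.12. WT1 was the highest WT array for both, and under the covariate from Gapdh and β-actin Igf2r was at 0.63 and Gatm at 0.53, neither called. With the covariate of all 4 control transcripts Igf2r was at 1.0 and called, and Gatm at 1.04 and not called, while Peg3, an imprinted zinc finger gene, was called at 1.09. Gatm was also not called without KO5, without KO6, without WT2 or without WT3, with values from 0.97 to 1.15. The lists overlap, so their counts are not separate. Cdkn1c and Dlk1 stand here, in the list of their own region and among the protein-coding genes nearest to the 4 RNAs, given below. Rian and Mirg stand both in the Meg3 region and among the other long noncoding RNAs given below. Further genes of the Kcnq1 region also stand among the nearest protein-coding genes.

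The genes for proteins of the nuclear bodies that Malat1 and Neat1 occupy were counted next. Of 40 measured nuclear speckle proteins, 1 was called higher by limma and 0 lower, where 0.517% of all genes were higher and 0.462% lower. It was Srrm2, a scaffold protein of the speckle, at 10.56, 9.87 and 9.09 in WT and 10.93, 10.83 and 11.32 in KO, a rise of 1.19 (limma, adjusted p = 0.132). It was not called with either RNA quality covariate (0.30 and 0.39) or without any 1 of WT2, WT3, KO5, KO6 and KO7. The splicing factor Rbm39 was at 0.90 (limma, adjusted p = 0.098), and the median of the 40 was -0.05. Of 37 measured paraspeckle proteins, 1 was called higher by limma and 0 lower, beside the same shares of all genes. It was Taf15, an RNA-binding protein, at 7.40, 6.34 and 6.38 in WT and 7.99, 7.56 and 8.05 in KO, a rise of 1.16 (limma, adjusted p = 0.104). It was not called with the covariates (0.10 and 0.48) or without WT2, WT3, KO5 or KO7, where it was 0.98 to 1.10. The zinc finger protein Zfp24 was at -0.61 (limma, adjusted p = 0.149). The core proteins that bind Neat1 were at -0.07 for Sfpq (limma, adjusted p = 0.894), -0.12 for Nono (limma, adjusted p = 0.671) and -0.38 for Pspc1 (limma, adjusted p = 0.158), and the median of the 37 was -0.07.

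Where any probe set of a gene was counted, not only the brightest, 10 of the 40 speckle proteins and 4 of the 37 paraspeckle proteins were called higher, where 2.95% of all genes were. A gene with more probe sets can be called in more ways. The share over all genes was not matched for the number of probe sets, so nothing is read from the gap. Those of the paraspeckle were Sfpq, Ewsr1, Taf15 and Smarca4. The Sfpq probe set 1436898_at was 8.80, 7.81 and 7.0 in WT and 9.71, 9.41 and 10.02 in KO, a difference of 1.85, while its brightest probe set was at -0.07. For Sfpq, as for Malat1, probe sets of the same gene thus differed unequally, and WT1 was the WT array nearest to KO on the probe set that was higher.

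No other long noncoding RNA on the list was called on its brightest probe set. Of 44 measured, 0 were called by limma in either direction. At an unadjusted p under 0.05, 5 were higher and 11 lower, where 6.17% of all genes were higher and 13.0% lower. Their median difference was -0.16. The largest were those of Snhg11, at 6.32, 7.59 and 7.37 in WT and 8.12, 4.68 and 5.17 in KO (-1.10, limma, adjusted p = 0.526), and Snhg12, at 10.36, 10.22 and 9.97 in WT and 10.61, 7.83 and 9.82 in KO (-0.76, limma, adjusted p = 0.551). Both host small nucleolar RNAs, and both were high in KO5 and lower in KO6 and KO7. Xist, the RNA of X inactivation, resembled Malat1 in that its probe sets differed unequally. Its probe set 1427262_at was 9.21, 7.87 and 6.97 in WT and 10.78, 10.50 and 11.16 in KO, a difference of 2.79, and its brightest, 1436936_s_at, was 13.01, 12.74 and 12.48 in WT and 13.19, 13.09 and 13.20 in KO, a difference of 0.42 (limma, adjusted p = 0.195).

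Of the 26 measured protein-coding genes that lie nearest to the 4 RNAs, 0 were called by limma, 5 were higher at an unadjusted p under 0.05 and 0 lower, and the median difference was 0.0015. Of all genes 0.517% were called higher and 0.462% lower, and at an unadjusted p under 0.05 it was 6.17% and 13.0%. The largest were 0.92 for Cars, a transfer RNA synthetase gene near Kcnq1ot1 (limma, adjusted p = 0.159), and 0.73 for Frmd8, the gene next to Malat1 and Neat1 (limma, adjusted p = 0.181). Frmd8 was 8.06, 7.08 and 7.30 in WT and 8.00, 8.38 and 8.24 in KO, with the groups overlapping through WT1. Without WT1 it was called at 1.01 and Cars at 1.26. Under the covariate from Gapdh and β-actin Frmd8 was at -0.17 and Cars at -0.16. With that of all 4 control transcripts Frmd8 was at 0.17 and Cars at 0.32, and neither gene was called with either covariate. The plot of the 7 gene lists shows the median of the 3 genes around Meg3 at 0.52 and those of the other lists between -0.16 and 0.12.

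**Figure D5:**
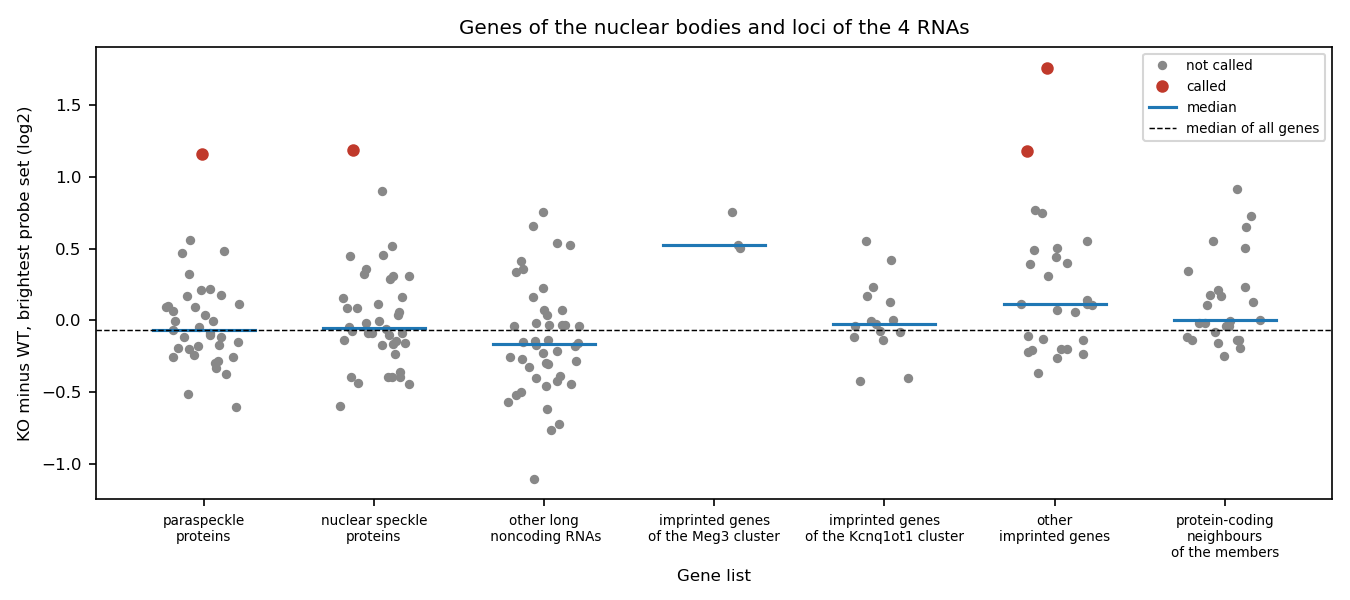
KO minus WT (log2, vertical axis) of each measured gene of 7 lists, by its brightest probe set; red points were called (limma, unadjusted p under 0.01 and at least 2-fold), blue lines are list medians and the dashed line is the median of all genes. The 4 called points are Taf15, Srrm2, Igf2r and Gatm.

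The genes whose values over the 6 arrays were most like those of each RNA are named as a description. For 1418189_s_at of Malat1 they were Zbtb20, Rsrc2, Pkp4 and Wipi1 (Pearson r = 0.997 to 0.999), and 70 named probe sets were above 0.99. For 1428083_at of Neat1 they were Nptn, Sbno2, Nr3c1 and Cxadr (0.995 to 0.998), for 1439380_x_at of Meg3 Aff1, Cd300lg, Sptbn1 and Eprs (0.988 to 0.993), and for 1457781_at of Kcnq1ot1 Gsk3b, Vcp, Spata13 and Sart3 (0.988 to 0.994). Such r values hold the KO against WT difference. Over deviations from the group means alone, the most like were Strn4, Coro7, Rif1 and Ccser2 for Malat1, Dnajc2, Dusp16, BC005624 and Pnma1 for Neat1, Nlgn1, Mrpl13, Galnt4 and Stx12 for Meg3, and Slc25a51, Tgs1, Stra6 and Polr1a for Kcnq1ot1. No gene was named for more than 1 of the RNAs.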

How the data were processed

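Organoid RNA of 3 WT and 3 KO mice was hybridised to Affymetrix whole-genome mouse arrays, 1 per mouse. The authors deposited log2 values. RMA, named without a version in their processing notes, had subtracted background, made the distributions of the arrays equal and combined probes into 1 value per probe set, and simpleaffy and limma are named in the methods. These values were used as deposited, with no pseudocount. Of 45101 probe sets, 64 were Affymetrix controls and were not tested. Among the other 45037, 34945 carried 1 gene symbol in the platform annotation, 932 several and 9160 none, and only the first kind named genes. The RefSeq gene table gave names (34741 identifiers found) and the gene positions by which the neighbours were taken.

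KO and WT were compared in limma 3.58.1 under R 4.3.3 (lmFit and eBayes, all 6 arrays, no covariate). Calls required an unadjusted p under 0.01 together with at least 2-fold, as in the study, and adjusted p values follow Benjamini and Hochberg over the whole table. A gene was represented by its brightest probe set. The control transcripts were compared with exact permutation tests. The 4 RNAs, the gene lists and the rules were chosen with earlier results of these data known. Named genes were the 4 RNAs, Wwox, up to 5 called genes of each list or, where fewer than 2 were called, the 2 of largest absolute change, the measured genes of an imprinted region where under 6 were measured, and the 4 probe sets most like each RNA. Sfpq, Nono, Pspc1, Kcnq1, Xist and the markers were named after their values were seen. Alternatives were quantile and cyclic loess normalization, ribosomal protein centring, a minimum mean of 6, a trended and robust prior, array weights, each array left out, a replicate block, 2 RNA quality covariates, any probe set of a gene, and an adjusted p under 0.05. On simulated data for KO minus WT over 45037 probe sets, the limma step recovered 97% of 100 changes of 1.5 and 100% of 100 changes of 3 on the log2 scale, 0 with the wrong sign, and called 41 unchanged probe sets. The simulated noise was drawn independently for each probe set and array, whereas many probe sets of the real arrays share a shift of WT1. The number of unchanged probe sets called therefore need not hold for the real data. The number of arrays limits the precision. Plots were made with matplotlib 3.10.9 in Python 3.11.15.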

Additional observations from a re-analysis of the deposited data

How the results depend on the processing

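With 3 arrays a group, dim probe sets (5 of Meg3 and 4 of Kcnq1ot1) allow little to be said, and values within 1 RNA rest on which probe set is read. The median difference of Malat1 was 2.57, and 1.23 and 1.40 with the Gapdh and β-actin and the 4-control covariate; with each array left out it ranged from 2.25 to 3.13. That of Neat1 was 1.06, and 1.14 after ribosomal protein centring, a setting that shifted the median of all probe sets by 0.0791. That of Meg3 was 0.39, and 0.62 and 0.60 with the covariates and 0.99 over the 6 probe sets with a mean of at least 6, and 0.27 to 0.53 with each array left out. That of Kcnq1ot1 was 0.23, and 0.47 over the 2 probe sets with such a mean. No member or named list gene within the call limits in the fit of all 6 arrays without a covariate changed direction in these settings. Genes were read by their brightest probe set. Some genes called only in another setting did change direction. Snhg11 was at -2.17 without KO5 and 0.02 under the covariate from Gapdh and β-actin. Cars and Frmd8 were at 1.26 and 1.01 without WT1 and at -0.16 and -0.17 under that covariate.

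Over all probe sets, 894 were called, 316 under the covariate from Gapdh and β-actin (137 higher and 179 lower), 100 at an adjusted p under 0.05 (77 higher and 23 lower), and 566 to 1634 with each array left out. The 1 paraspeckle protein (Taf15) was 1 under the covariate from Gapdh and β-actin, but it was Rbm4b, lower at -1.27, and 0 with the 4-control covariate and at an adjusted p under 0.05, 4 with any probe set, and 0 to 1 with each array left out. The 1 nuclear speckle protein was 0 with either covariate, with a minimum mean of 6, with quantile normalization and at an adjusted p under 0.05, 10 with any probe set, and 0 to 2 with each array left out. The 0 other long noncoding RNAs were 1 with the 4-control covariate (Rian), 1 with any probe set (Xist), and 0 to 1 with each array left out (Snhg11 without KO5, at -2.17). The 0 genes of the Meg3 region were 1 with the 4-control covariate. The 2 other imprinted genes were 0 under the covariate from Gapdh and β-actin and at an adjusted p under 0.05, 1 with array weights and with quantile normalization, and 1 to 2 with each array left out. The 0 neighbours were 1 with array weights (Cars), 1 with any probe set (Hsp90aa1), and 0 to 2 with each array left out. For these counts the cause was not tested, and the groups were apart on the covariate from Gapdh and β-actin.

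The labels do not say whether mice of the same replicate number shared a litter or day. Deviations from the group means of same-numbered arrays correlated at -0.16, 0.16 and 0.10. The main fit treated the arrays as unpaired, though so few values cannot show whether the mice were. With the replicate number as a block, 922 probe sets were called, the nuclear speckle count was 0, the medians of the 4 RNAs did not move, and 1 instead of 2 Meg3 probe sets lay within the limits.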
